A study of Mus musculus with 4 samples.

Results

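The SoxB, SoxD and SoxE genes encode 3 groups of transcription factors that share a DNA-binding domain, the HMG box. Their levels were described in RNA from medial basal radial glia of the mouse neocortex at E18.5. The members are Sox1, Sox2 and Sox3 (group B1), Sox21 (group B2), Sox5, Sox6 and Sox13 (group D), and Sox8, Sox9 and Sox10 (group E). They were found by matching the Ensembl identifiers of the count table to these symbols in GENCODE release M21 on GRCm38, which gave 10 of 45706 genes, all with counts in all 4 libraries. The libraries form a single group of 4 replicates with the same strain, C57BL/6JOlaHsd, and the same genotype, Tubb-GFP/+. Their titles also name DiI, a lipophilic membrane dye. The labels do not say how reporter and dye served to isolate the cells, what drives the reporter, or if each library stands for an animal of its own. The p-values thus reflect no more than the spread among these 4 samples, and that spread may be technical. With a single group there is no contrast between conditions, and the comparisons are between genes within libraries.

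Sox proteins bind DNA through the HMG box and act with partner proteins that differ between groups. The SoxB1 proteins keep neural progenitors in an undifferentiated state, and Sox21 is known to counteract them. SoxD proteins have no activation domain of their own; they pair through a coiled coil and change the activity of other Sox proteins, those of group E among them. SoxE proteins take part in the switch of neural progenitors to glial fates, in the oligodendrocyte lineage, in the neural crest and in cartilage. Basal radial glia are progenitors that keep a process towards the pial surface but have no contact with the ventricle.

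The coding sequence at the start of the HMG box shows both what the members share and where the groups part. The 60 bases from the same start in each gene, read from the GENCODE M21 transcripts, are printed 5′ to 3′ on the coding strand, and capitals mark the bases that differ from Sox2.
Sox2: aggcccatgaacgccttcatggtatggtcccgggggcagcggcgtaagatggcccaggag
Sox1: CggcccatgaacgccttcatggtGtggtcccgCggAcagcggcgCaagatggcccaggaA
Sox3: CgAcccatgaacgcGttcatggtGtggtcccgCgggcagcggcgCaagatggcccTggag
Sox21: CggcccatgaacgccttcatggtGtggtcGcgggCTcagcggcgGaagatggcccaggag
Sox5: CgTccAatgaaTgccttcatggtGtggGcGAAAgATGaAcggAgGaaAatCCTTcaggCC
Sox6: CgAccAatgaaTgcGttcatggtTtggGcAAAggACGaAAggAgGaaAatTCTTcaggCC
Sox13: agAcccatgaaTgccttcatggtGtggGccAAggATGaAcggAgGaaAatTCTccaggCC
Sox9: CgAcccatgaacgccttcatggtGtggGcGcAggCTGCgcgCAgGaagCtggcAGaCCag
Sox8: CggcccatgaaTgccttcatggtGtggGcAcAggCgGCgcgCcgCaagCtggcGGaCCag
Sox10: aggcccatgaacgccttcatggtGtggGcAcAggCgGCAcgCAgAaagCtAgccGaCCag
These windows lie within a single exon each, at chr3:34650548-34650607 (plus strand) for Sox2, chr8:12396517-12396576 (plus strand) for Sox1, chrX:60892936-60892995 (minus strand) for Sox3, chr14:118235549-118235608 (minus strand) for Sox21, chr6:143841214-143841273 (minus strand) for Sox5, chr7:115489703-115489762 (minus strand) for Sox6, chr1:133385506-133385565 (minus strand) for Sox13, chr11:112782903-112782962 (plus strand) for Sox9, chr17:25570163-25570222 (minus strand) for Sox8 and chr15:79163342-79163401 (minus strand) for Sox10. The other SoxB genes matched Sox2 at 88.3% to 90% of these bases, the SoxD genes at 60% to 70% and the SoxE genes at 70% to 73.3%. Within groups, 12 pairs were identical at 86.7% to 91.7% of the window (median 88.3%), and 33 pairs between groups at 60% to 80% (median 68.3%). The longest run of coding bases shared by any pair over the whole coding sequence was 45 bases, between Sox1 and Sox3, followed by 44 bases between Sox9 and Sox10. The sources used here give no read length, and whether a read inside these runs could be placed in the wrong member was not tested.

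The 4 libraries held 26540656 to 34837657 counts, with a count for 23128 to 23900 genes. Radial glial genes were present throughout: all 12 genes of a list of radial glial genes and SoxB1 partners lay above 1 TPM (the usual unit of transcript abundance, scaled by gene length and library total), led by Fabp7, a lipid carrier of radial glia, at 4631 ± 382 TPM (SD, n = 4) and Pou3f2, a POU factor that acts beside SoxB1 proteins, at 415 ± 53.0. Pax6, the defining transcription factor of cortical radial glia, stood at 21.1 ± 2.40. Defining genes of other cells were also present: all 8 neuronal genes lay above 1 TPM, with the neuronal tubulin Tubb3 at 6691 ± 496 and the growth-cone protein Gap43 at 662 ± 38.9. All 7 genes of intermediate progenitors did so, among them Eomes at 18.9 ± 1.24, Gadd45g at 511 ± 64.1 and Btg2 at 425 ± 21.8. All 6 erythroid genes did so too, with Hbb-bs at 1183 ± 357 and Hba-a1 at 719 ± 207. Of all protein-coding genes tested 75.7% lay above 1 TPM, so a list wholly above it says little by itself. In bulk RNA, a low level from fewer expressing cells and one from less RNA per cell cannot be told apart.

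Sox9 was the most abundant member and Sox2 the second in each of the 4 libraries, and Sox13 was the lowest in each. Levels are TPM computed from the deposited counts and the merged exon length of each gene, so that genes of different length can be compared. All 10 members lay above 1 TPM by edgeR's quasi-likelihood test, with adjusted p between 3.02e-17 for Sox9 and 3.43e-05 for Sox13. Of the 20991 genes tested, 65.9% lay above 1 TPM and 12.1% below it, and of the 15401 protein-coding genes 75.7% and 11.5%. Most genes thus passed this mark, and the count of members does not set them apart. The median of the members' mean levels was 7.49 TPM, against 4.79 for all genes tested and 8.997 for protein-coding genes.

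**Figure D1:**
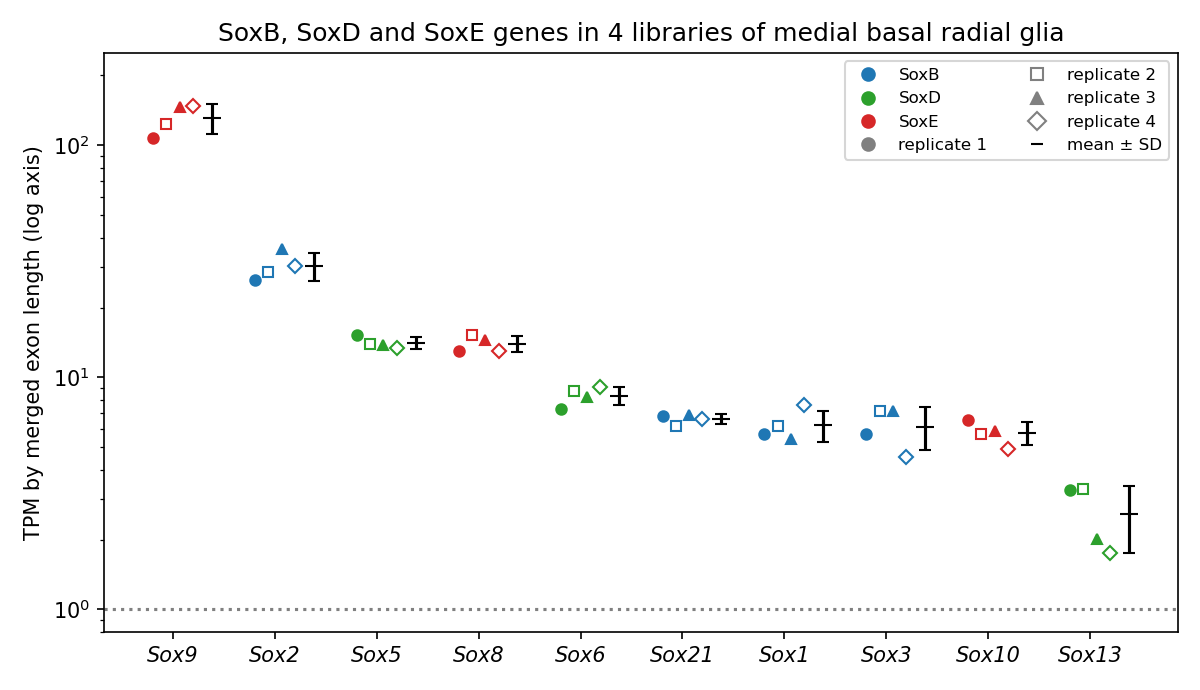
Level of each SoxB, SoxD and SoxE gene in each of the 4 libraries, in TPM by merged exon length on a log axis, with the genes ordered by mean level. Sox9 lies above 100 TPM in every library and Sox13 between 1.75 and 3.32 TPM.

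Among the SoxB genes, Sox2 led and the 3 others lay close together. Sox2, which is required to maintain neural stem cells, is a gene of a single exon at chr3:34650405-34652461 on the plus strand. It had 482, 658, 707 and 512 counts in replicates 1 to 4, or 26.2, 28.4, 35.8 and 30.2 TPM. Replicate 3 was the highest and replicate 1 the lowest. The mean was 30.2 ± 4.10 TPM (SD, n = 4), above 79.2% of the genes tested. The fitted log2 level against 1 TPM was 4.91, and log2(TPM + 1) had an SD of 0.185 over the 4 libraries.

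Sox1, a SoxB1 gene of the early neural plate and of progenitors (chr8:12395295-12400126, plus strand), had 247, 335, 251 and 303 counts, or 5.71, 6.16, 5.41 and 7.61 TPM, highest in replicate 4. Sox3, the SoxB1 gene of the X chromosome (chrX:60891366-60893430, minus strand), had 105, 167, 142 and 77 counts, or 5.68, 7.18, 7.16 and 4.53 TPM, lowest in replicate 4. The means were 6.22 ± 0.976 TPM for Sox1 and 6.14 ± 1.28 TPM for Sox3, and the ranges of both genes overlapped. Sox21, the SoxB2 gene (chr14:118233232-118237030, minus strand), had 231, 265, 251 and 208 counts and stayed between 6.20 and 6.88 TPM, with a mean of 6.63 ± 0.304. It varied least of all members, with a coefficient of variation of 4.64% in counts scaled by the library total. That was below the 6.50% that counting alone gives for its counts. Of its exonic bases, 713 (18.8%) lie opposite the noncoding gene Gm4675, which had 1.65 ± 0.409 TPM. The sources used here do not say if the authors' counting used strand, so reads of the 2 genes in that stretch cannot be told apart.

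Summed over the 3 SoxB1 genes, the level was 37.6, 41.8, 48.3 and 42.4 TPM in replicates 1 to 4. Against Sox21 this was a log2 ratio of 2.68 ± 0.15 (SD, n = 4), or 6.39-fold, in the same direction in 4 of 4 libraries. That ratio sets a sum of 3 genes against 1; as a mean over genes of log2(TPM + 1) the difference was 0.61, and the mean levels of Sox1 and Sox3 were below that of Sox21. Sox2 made up 61.2% ± 2.69 of the summed SoxB level, Sox21 13.6% ± 1.25, Sox1 12.8% ± 2.35 and Sox3 12.5% ± 2.39.

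The SoxD genes ranked from the third to the last place. Sox5, known in the cortex for its role in deep-layer corticofugal neurons and in oligodendrocyte precursors, spans 953553 bases at chr6:143828425-144781977 on the minus strand, with 25 merged exons of 14376 bases. It had 1957, 2254, 1906 and 1582 counts, or 15.2, 13.9, 13.8 and 13.4 TPM, with a mean of 14.1 ± 0.797. Replicate 1 was the highest, and the 4 values stayed within 1.14-fold of each other.

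Sox6, known in interneurons from the medial ganglionic eminence, in dorsal progenitors and in oligodendrocyte precursors, spans 567925 bases at chr7:115470872-116038796 on the minus strand. It had 972, 1458, 1178 and 1106 counts, or 7.32, 8.73, 8.27 and 9.05 TPM, with a mean of 8.34 ± 0.753 and replicate 1 the lowest. Sox13 (chr1:133382303-133424377, minus strand), the SoxD gene best known from lymphoid cells, had 126, 161, 83 and 62 counts, or 3.27, 3.32, 2.00 and 1.75 TPM. Its values fell into a higher pair, replicates 1 and 2, and a lower pair, replicates 3 and 4, around a mean of 2.58 ± 0.825. That mean lay above 40.7% of the genes tested. Sox13 had the largest spread of the members, with a coefficient of variation of 32.9% in counts scaled by the library total, against 10.3% from counting alone. Sox5 made up 56.3% ± 2.33 of the summed SoxD level, Sox6 33.5% ± 3.77 and Sox13 10.2% ± 2.89.

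The SoxE genes held both the highest member and one of the lowest. Sox9, which confers glial competence on neural progenitors and directs cartilage formation, lies at chr11:112782224-112787760 on the plus strand. It had 3962, 5725, 5840 and 5039 counts, or 107, 123, 147 and 148 TPM, lowest in replicate 1 and highest in replicates 3 and 4. The mean of 131 ± 19.8 TPM put it at rank 1272 of the 20991 genes tested, above 93.9% of them. Its fitted log2 level was 7.04, and log2(TPM + 1) had an SD of 0.223 over the 4 libraries.

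Sox8 (chr17:25565892-25570686, minus strand), which acts with Sox9 and Sox10 in the oligodendrocyte lineage, had 364, 532, 435 and 333 counts, or 13.1, 15.2, 14.5 and 13.0 TPM, with a mean of 13.9 ± 1.09. Replicates 2 and 3 were its higher values. Of its exonic bases, 329 (10.6%) lie opposite the antisense gene 2810468N07Rik, itself at 15.3 ± 1.76 TPM, so the value of Sox8 is uncertain by the reads of that stretch. Sox10 (chr15:79154908-79165240, minus strand), the factor of oligodendrocyte differentiation and of the neural crest, had 178, 195, 172 and 124 counts, or 6.52, 5.68, 5.87 and 4.93 TPM, with a mean of 5.75 ± 0.653 and replicate 4 the lowest. Sox9 made up 86.8% ± 2.13 of the summed SoxE level, Sox8 9.33% ± 1.31 and Sox10 3.89% ± 0.926.

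Within libraries, 1 member was higher than Sox2 and the 8 others were lower, on the log2(TPM + 1) scale with limma. Sox9 was higher by 2.08 ± 0.12 (SD of 4 within-library differences), and its TPM was 4.09 to 4.90 times that of Sox2. Sox5 was lower (difference -1.04 ± 0.24), at 0.386 to 0.581 of the Sox2 level, and Sox8 likewise (difference -1.06 ± 0.18), at 0.406 to 0.533. The largest gap was that of Sox13, with a difference of -3.14 ± 0.49. Each of the 9 differences kept its sign in 4 of 4 libraries. Of all genes tested, 18.3% were higher and 76.6% lower than Sox2, and of the protein-coding genes 23.9% and 69.6%, so most genes, like most members, lay below Sox2.

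The moderated p-values of that fit, 2.51e-12 for Sox5 and smaller for the other members, are too small, since every difference carries the same 4 deviations of Sox2. With the spread of each gene alone, an alternative chosen after seeing the data, the same 9 calls were made, with limma's adjusted p from 0.00029 for Sox9 to 0.00413 for Sox5. By this fit 17.2% of all genes were higher and 75% lower. The exact two-sided sign-flip permutation test of a single difference cannot go below 0.13 with 4 libraries.

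The order of the levels was Sox9, Sox2, Sox5, Sox8, Sox6, Sox21, Sox1, Sox3, Sox10 and Sox13. Of the 9 pairs of neighbours in it, 5 had the same direction in all 4 libraries. These were Sox9 over Sox2, Sox2 over Sox5 (1.04 ± 0.24 on the log2 scale), Sox8 over Sox6 (0.68 ± 0.14), Sox6 over Sox21 (0.29 ± 0.16) and Sox10 over Sox13 (0.94 ± 0.26), each with the smallest exact p of 0.13 and an adjusted p of 0.225 over the 9 pairs. The other 4 pairs had mixed signs. Sox5 and Sox8 differed by 0.016 ± 0.14 (exact p = 0.875), Sox21 and Sox1 by 0.087 ± 0.21 (exact p = 0.375), Sox1 and Sox3 by 0.026 ± 0.43 (exact p = 0.875), and Sox3 and Sox10 by 0.067 ± 0.24 (exact p = 0.625). Sox5 and Sox8 thus shared the third place within their spread. Sox21, Sox1, Sox3 and Sox10 formed a run of neighbours whose order was not resolved. All this holds for merged exon length. With the longest transcript as length, Sox2 over Sox5 fell to 0.098 (exact sign-flip p = 0.5) and Sox8 over Sox6 to 0.019 (exact sign-flip p = 0.875). Sox5 over Sox8 rose to 0.89 and Sox6 over Sox21 to 0.97.

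Summed by group, the SoxE genes stood highest, the SoxB genes next and the SoxD genes lowest in every library. The SoxE sum was 127, 144, 167 and 166 TPM in replicates 1 to 4, and took 64.3% to 69.4% of the level of all 10 members. The SoxB sum was 44.4, 48.0, 55.2 and 49.0 TPM, or 20.5% to 22.6%. The SoxD sum was 25.8, 26.0, 24.1 and 24.2 TPM, or 9.76% to 13.1%. The values of the 3 groups did not overlap. As log2 ratios within libraries, SoxB over SoxD was 0.97 ± 0.18, SoxE over SoxD 2.59 ± 0.25 and SoxB over SoxE -1.61 ± 0.10 (SD, n = 4), each with the same sign in 4 of 4 libraries. These sums rest on 1 gene each for the larger part, and they were given no test.

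**Figure D2:**
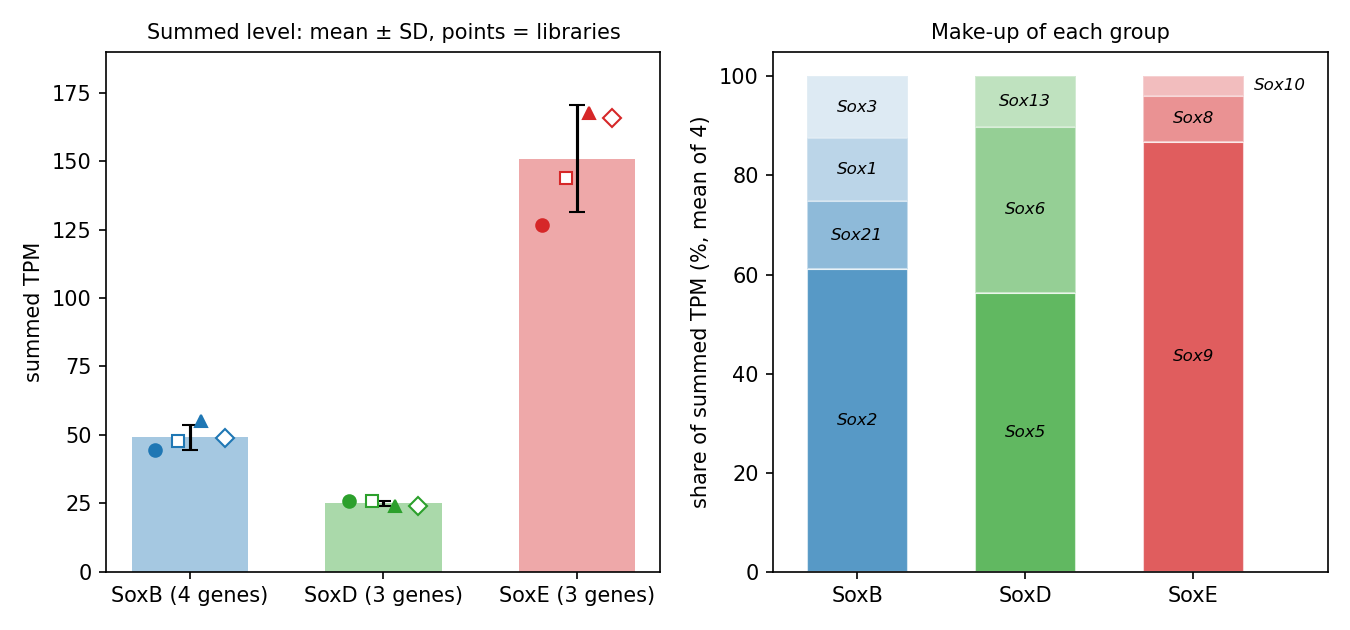
Left, summed TPM of the SoxB, SoxD and SoxE genes, with bars for the mean, error bars for the SD and a point for each of the 4 libraries. Right, the mean share of each gene in the summed level of its group in percent, with Sox2, Sox5 and Sox9 as the largest shares of SoxB, SoxD and SoxE.

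The place of the SoxD genes turned on the length by which counts were divided. Without length correction, in counts scaled by the library total alone (CPM), Sox5 and Sox6 took places 2 and 3, at 64.5 ± 4.24 and 39.4 ± 3.31 CPM, above Sox2 at 19.8 ± 2.77. In the deposited TPM, the 3 SoxD genes took the last 3 places, with 0.745 ± 0.042 for Sox5, 0.765 ± 0.070 for Sox6 and 0.930 ± 0.30 for Sox13, against 106 ± 14.5 for Sox2 and 344 ± 52.2 for Sox9. For 9 of the members, the deposited TPM followed the count divided by the whole gene span, introns included, within 0.00108 on the log2 scale; for Sox10 the gap reached 0.11. The merged exon length of Sox5 makes up a small part of its span, and its deposited TPM was 0.0529 of the exon-based value. On the deposited scale Sox5 and Sox6 were called below 1 TPM by edgeR's quasi-likelihood test (log2 level -0.42, adjusted p = 2.4e-05, and -0.39, adjusted p = 0.000375). Sox13 was not called there (-0.10, adjusted p = 0.628), and the 7 other members were above 1 TPM. Of the 13822 genes tested on that scale, 69.7% lay above 1 TPM and 20.9% below.

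Merged exons pool the exons of all annotated transcripts, 14 for Sox5 and 16 for Sox6, which makes these genes long. With the longest single transcript as length, 7243 bases for Sox5, its level became 21.1 ± 1.18 TPM against 22.8 ± 3.12 for Sox2. Sox5 was then no longer called different from Sox2 (difference -0.098, limma adjusted p = 0.483), and the SoxB to SoxD log2 ratio was 0.12. By CPM that ratio turned to -1.38. Sox9 kept the first place on each of these 4 scales.

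**Figure D3:**
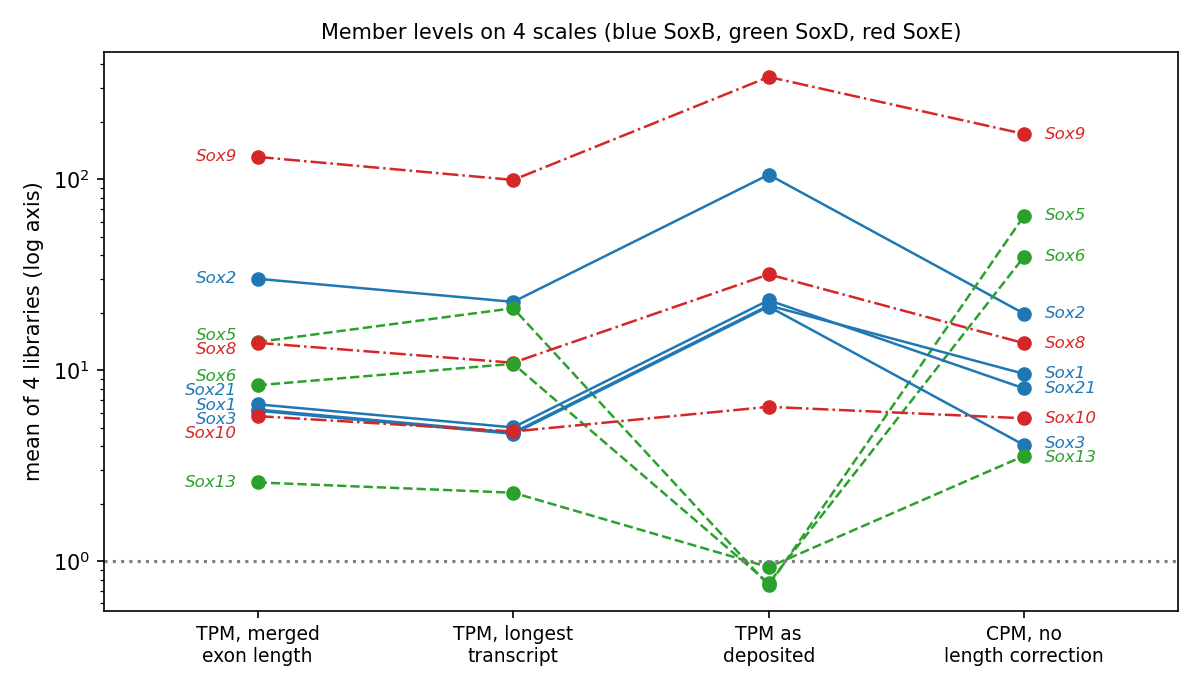
Mean of 4 libraries for each member on 4 scales, on a log axis: TPM by merged exon length, TPM by longest transcript, the deposited TPM, and CPM without length correction. The lines of Sox5, Sox6 and Sox13 drop below or near the dotted mark of 1 on the deposited scale, while Sox5 and Sox6 lie above Sox2 in CPM.

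The spread between libraries is given as a description, with no test. The coefficient of variation of Sox9 in CPM was 14.4%, against 1.41% from counting. Among the 200 genes nearest to Sox9 in mean CPM the median was 6.26%, and 188 of them varied less than Sox9. For Sox13, 149 of its 200 nearest genes varied less, and for Sox21 only 3. Sox9, Sox2 and Sox6 were lowest in replicate 1, and 5 members (Sox3, Sox5, Sox13, Sox8 and Sox10) were lowest in replicate 4.

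Marker sums of other cell types also moved between libraries. The radial glial list was lowest in replicate 1 and highest in replicate 3, at 5303, 5876, 6330 and 5853 summed TPM. Fabp7 alone made up most of it, at 4155, 4691, 5084 and 4593, and its other genes did not all follow. Pax6, Pou3f4, Hes1, Hes5 and Slc1a3 were also highest in replicate 3. Pou3f2, Pou3f3, Chd7 and Prom1 were highest in replicate 4, Nes in replicate 1 and Vim in replicate 2. Only Fabp7, Slc1a3, Hes5 and Prom1 were lowest in replicate 1. The neuronal list went from 8801 and 8581 in replicates 1 and 2 to 7739 and 7894 in replicates 3 and 4. That sum was mostly Tubb3, at 7221, 7007, 6273 and 6263, and the list did not move as one. Dcx, Map2, Stmn2, Syt1 and Snap25 were highest in replicate 4, Rbfox3 in replicate 1 and Gap43 in replicate 2. The microglial list was lowest in replicate 4, at 41.7, 31.9, 39.6 and 18.1, with 5 of 8 genes above 1 TPM and none at 0 in all libraries. The part of these differences in the levels of the members was not tested.

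**Figure D4:**
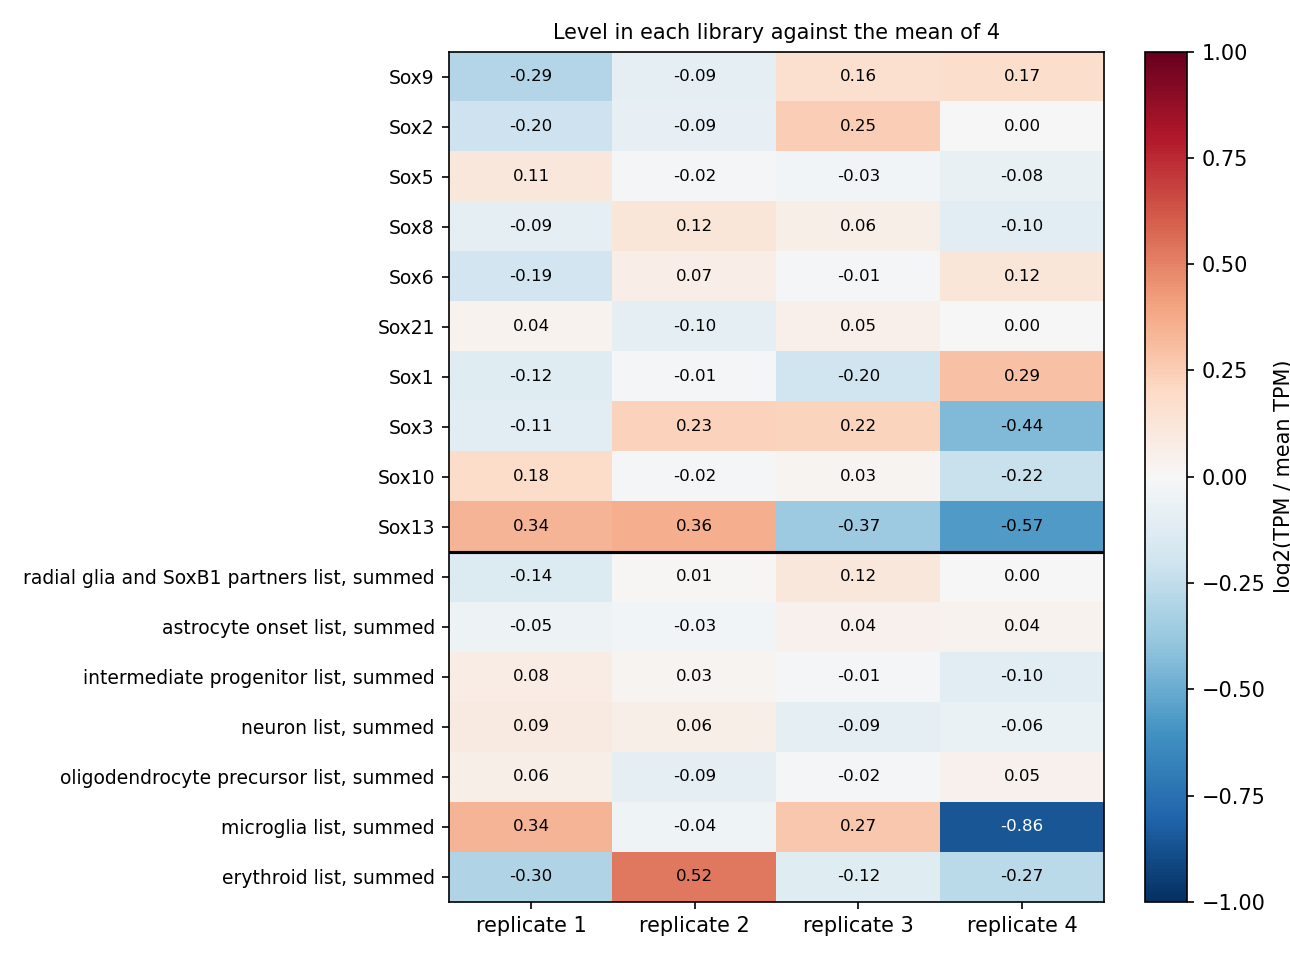
Log2 ratio of the level in each library to the mean of the 4 libraries, for the 10 members (above the line) and for the summed TPM of 7 marker lists (below it), with blue for lower and red for higher. Sox13 is higher in replicates 1 and 2 than in replicates 3 and 4. Sox3, Sox5, Sox13, Sox8 and Sox10 are lowest in replicate 4, and so are the intermediate progenitor and microglial lists. A link between members and lists was not tested. The radial glial and neuronal sums are mostly those of Fabp7 and Tubb3.

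Genes that mark the settings in which the members are known to act were compared against the same 1 TPM mark. Of all protein-coding genes tested 75.7% passed it, a share to set beside each list below. All 10 genes of the astrocyte-onset list, the setting of Sox9, lay above it, led by the nuclear factors Nfix at 629 ± 42.7 TPM and Nfia at 623 ± 76.8. In the oligodendrocyte precursor list, the setting of Sox10 and Sox8, 6 of 7 genes lay above and 1 below. Olig1 stood at 16.4 ± 1.62, the receptor Pdgfra at 14.4 ± 1.19 and Olig2 at 7.20 ± 1.60. Of the 8 myelin genes 7 were tested, with 5 above and 2 below, among them Cnp at 24.8 ± 2.91, Mog at 9.58 ± 1.14 and Mbp at 6.30 ± 1.39.

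All 7 genes of deep-layer neurons, the setting of Sox5, lay above 1 TPM, with Fezf2 at 26.2 ± 2.15 and Ldb2 at 24.98 ± 4.86. Of the 10 interneuron genes, the setting of Sox6, 9 were tested, with 7 above and 1 below; the neuropeptides Npy and Sst led at 157 ± 37.3 and 77.1 ± 24.6, and the lineage factor Lhx6 stood at 3.99 ± 0.507.

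Of the settings of SoxE and SoxD genes outside the brain, cartilage was thinly present and the neural crest list was mixed. Of the 10 cartilage genes, 9 were tested, with 2 above (Col11a1 at 3.003 ± 0.503 and Col9a3 at 2.01 ± 1.05) and 5 below. The cartilage collagen Col2a1, a target of Sox9, was at 0.945 ± 0.074 TPM, which did not differ from 1 TPM beyond its error (edgeR adjusted p = 0.653). Of the 8 neural crest and Schwann cell genes, 6 were tested, with 2 above and 2 below. The 2 above were Ednrb at 111 ± 12.5 and Pmp22 at 61.8 ± 5.83, while the crest factor Foxd3 had 0, 0, 2 and 0 counts.

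Lists of further cell types give the level that genes of other sources reached. Of 7 endothelial genes 1 lay above 1 TPM (Esam, 1.95 ± 0.865) and 4 below, with Pecam1 at 0.838 ± 0.221. Of 6 mural and meningeal genes 3 lay above and 2 below, with Pdgfrb at 6.38 ± 1.96 and Rgs5 at 2.39 ± 0.643. Among microglial genes C1qb reached 13.3 ± 4.29 and Tyrobp 5.28 ± 2.41. Of 6 genes of choroid plexus and ependyma, 5 were tested, with 1 above (Ttr, 67.8 ± 12.5) and 2 below, and Folr1 stood at 0.645 ± 0.219.

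Genes that define other organs give a reference for the lower members. Of 12 such genes 6 were tested, 3 lay above and 1 below, and 5 had no count in any library. The skeletal muscle actin Acta1 stood at 7.48 ± 1.89 TPM and the glucagon gene Gcg at 5.16 ± 1.12. Sox21, Sox1, Sox3, Sox10 and Sox13 lay below Acta1 in replicates 1, 3 and 4. In replicate 2, where Acta1 was at 4.69 TPM, only Sox13 of these 5 did. Sox6 also lay below Acta1, in replicate 1 alone. Sox13 lay below Gcg in each library, Sox1 and Sox3 in replicate 1, and Sox10 in replicate 2.

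Of the 10 other Sox genes examined, 6 were tested and 4 lay above 1 TPM. The SoxC genes, which act in neurons and committed precursors, were all among these. Sox11 was far above any of the 10 members, at 7622, 7628, 7507 and 10370 TPM (mean 8283 ± 1394), with replicate 4 apart from the others. Sox4 stood at 47.2 ± 3.31 and Sox12 at 41.5 ± 1.25, between Sox9 and Sox2. The fourth, the SoxF gene Sox7, was at 2.46 ± 1.61 TPM with 56, 180, 52 and 39 counts, and replicate 2, at 4.85 TPM, was its highest value.

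The remaining Sox genes were low or without counts. Sox30 was at 0.646 ± 0.140 TPM (edgeR adjusted p = 0.104) and Sox15 at 0.423 ± 0.299 (adjusted p = 0.187). The endothelial SoxF genes Sox18 and Sox17 had 1, 1, 2 and 2 counts and 2, 0, 0 and 0 counts. The second SoxB2 gene, Sox14, had 3 counts in replicate 2 and none elsewhere. Sry had no count in any library, which allows up to 0.0861 to 0.113 CPM at a limit of 3 counts per library, for counting error only.

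For each member, the marker genes nearest in level over the 4 libraries were found by the root mean square difference in log2(TPM + 1) among 142 genes. The closest matches were Pdgfra for Sox5, at 0.094, and the oligodendrocyte precursor receptor Gpr17 for Sox8, at 0.096. The synaptic gene Syt1 came second for both, at 0.10 for Sox5 and 0.15 for Sox8. Sox21 was nearest to the POU factor Pou3f4 (0.13) and to Olig2 (0.21), and Sox3 to Pdgfrb (0.16) and Gcg (0.27).

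The other members had more distant neighbours. Sox2 was nearest to the erythroid enzyme Alas2 (0.20) and to Fezf2 (0.26), Sox1 to Mbp (0.22), and Sox10 to Gcg (0.22) and Pou3f4 (0.33). Sox9 lay equally far from Mfng and Ednrb (0.27 each), Sox6 was nearest to Slc1a2 (0.25) and Mog (0.26), and Sox13 to Gad1 (0.24). The matches came from lists of glial, neuronal, blood, mural and other-organ genes alike, and they describe like levels in 4 libraries.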

How the data were processed

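RNA from 4 libraries of one group was measured. Poly-dT priming and template switching turned total RNA into cDNA, which was amplified and sheared, per the labels' protocols. Per the submitters' processing notes, bcl2fastq 2.19.1 and STAR 2.5.2b were used with GRCm38. No counting tool, strand setting or annotation release is given in the sources used here. Whole reads per Ensembl gene make up the deposited counts, not normalised by the authors. For 9 of the 10 members the deposited TPM of the authors followed the whole gene span, Sox10 departing from it, so TPM was recomputed from the counts with merged exon lengths of GENCODE M21; 45143 of 45706 identifiers matched, and the other 563 held 0.12% to 0.125% of the counts.

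The members and the marker lists were chosen with earlier results of these data known. Genes with at least 10 counts in total were tested against 1 TPM by edgeR 4.0.16 in R 4.3.3 (quasi-likelihood F test of the intercept), with the log of the count that 1 TPM would give as offset. Differences from Sox2 were tested on log2(TPM + 1), a pseudocount of 1, with limma 3.58.1. Both used Benjamini-Hochberg adjustment over all genes and a threshold of 0.05. Neighbours in the order were compared with an exact sign-flip permutation test, and group sums were given no test. Fold changes on the log2(TPM + 1) scale understate those of low genes. Genes named were the members, the other Sox genes, the 2 of highest level in each further list with 11 defining genes, and the 2 list genes nearest to each member; a few of these are not reported here.

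Tested on simulated data, the fit against 1 TPM called 45 of 50 genes set at 2 TPM and 31 of 44 set at 0.5 TPM, and gave no call for 99.97% of 37654 genes set at 1 TPM. Nearly all genes were set at 1 TPM there, unlike the real data, so this share without a call does not carry over to them. The fit against Sox2 called 50 of 50 genes at 1.5 times its level, and gave no call for 97.6% of 500 genes set at its level. Those genes shared a single simulated draw of Sox2, so 97.6% does not measure the error that Sox2's own deviations add. Both simulations gave every gene the same dispersion. Members had 62 to 5840 counts per library. The chi-square per gene between libraries was 9.23 to 23.9, so no library was a copy of another. Alternatives changed the replicates used, the gene length, the scaling (edgeR TMM and DESeq2 1.42.0 size factors), the test, the count filter and the pseudocount.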

Additional observations from a re-analysis of the deposited data

Results flagged for a closer look

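None of the 10 SoxB, SoxD and SoxE genes had a library apart from the other 3 by Dixon's criterion, which compares the gap between an extreme library and its nearest neighbour with the whole range (critical value 0.83 for 4 libraries). Of 91 sets of 4 values examined, members, named genes and list sums together, 9 exceeded it; chance flags about 1 in 20. Sox11 stood apart through replicate 4, at 10370 TPM against 7507 to 7628 (gap over range 0.958), and so did the summed other Sox genes, of which Sox11 is the largest part, at 10460 against 7604 to 7721 (0.959). Nfia was also high in replicate 4, at 737 TPM against 575 to 597 (0.867). Replicate 2 stood apart for Sox7, at 4.85 TPM against 1.44 to 1.90 (0.865), for Hbb-bs at 1712 against 932 to 1060 (0.837), for Hba-a1 at 1027 against 579 to 637 (0.871) and for the summed erythroid list at 4203 against 2377 to 2683 (0.832). Replicate 1 was low for Btg2, at 392 TPM against 433 to 439 (0.873), and for the summed myelin list, at 46.4 against 52.3 to 52.4 (0.972).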

How the results depend on the processing

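The count of 10 members above 1 TPM was the same when any replicate was left out, with the longest transcript as length, with edgeR's TMM or DESeq2's size factors, with DESeq2's Wald test and under both other count filters. On the deposited TPM scale it was 7, with 2 members below, beside 9632 genes above and 2895 below of 13822 tested (log2 level -0.42 for Sox5 and -0.39 for Sox6; Sox13 at -0.10 was not called). Against Sox2, 1 member was higher and 8 lower when any replicate was left out, with a pseudocount of 0.1 TPM, without the count filter, on the deposited scale and with the spread of each gene alone. By CPM 3 were higher and 6 lower (Sox5 1.66 and Sox6 0.97 above Sox2), and by longest transcript 7 were lower (Sox5 at -0.098).

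The SoxB to SoxD log2 ratio was 0.90 to 1.03 with a replicate left out, 0.12 by longest transcript, 6.15 on the deposited scale, -1.38 by CPM and 0.40 as a mean over members of log2(TPM + 1). SoxE to SoxD was 2.51 to 2.68, 1.74, 7.29, 0.83 and 1.58 in the same order. SoxB to SoxE was -1.65 to -1.57 with a replicate left out, -1.14 on the deposited scale, -2.21 by CPM and -1.18 as that mean. SoxB1 to Sox21 was 2.63 to 2.75, then 2.05 by CPM and 0.61 as that mean.

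Pairs of neighbours that turned were Sox5 minus Sox8 (-0.048 to 0.059 with a replicate left out, lowest without replicate 1; -4.23 deposited), Sox3 minus Sox10 (-0.0082 to 0.15 with a replicate left out, lowest without replicate 2; -0.045 by longest transcript, -0.40 by CPM), Sox1 minus Sox3 (-0.18 to 0.15, lowest without replicate 4), Sox6 minus Sox21 (-3.78 deposited), and by CPM Sox2 minus Sox5 (-1.66), Sox8 minus Sox6 (-1.45) and Sox21 minus Sox1 (-0.22). Over all genes, 2532 lay below 1 TPM, against 1525 to 1707 with a replicate left out, 6564 without a count filter and 549 with at least 10 counts in every library; 3851 were higher than Sox2, against 1053 on the deposited scale and 6334 by CPM. The deposited scale also holds fewer genes (13822 tested against 20991), and the cause of these changes was not tested. No paired analysis was possible because all 4 libraries form a single group.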

Other observations

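Noncoding genes that lie over or beside the members were measured in the same libraries. Sox2 lies inside Sox2ot, a long noncoding gene on the same strand with which it shares no exonic base. Sox2ot had 830, 1008, 790 and 921 counts in replicates 1 to 4, or 8.12 ± 1.09 TPM (SD, n = 4), below Sox2 at 30.2 ± 4.10. Sox1ot, which overlaps Sox1 on the same strand, again without shared exonic bases, stood at 2.00 ± 0.399 TPM with 119 to 154 counts per library. The antisense genes within Sox5 and Sox6 were nearly without counts: Sox5os1, which lies opposite 1330 exonic bases of Sox5 (9.25%), had none in any library, Sox5os2 had 31 counts over the 4 libraries against 7699 for Sox5, and Sox6os had 17 against 4714 for Sox6. The small RNA gene Gm25239 shares 86 exonic bases (1.78%) with Sox1 on the same strand and had no count. How the counting treated shared bases, and if it used strand, is not given. The lack of counts for Sox5os1 and Gm25239 thus does not show that their RNA was absent. The effect of these bases on the levels of Sox5 and Sox1 was not tested.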
